A study of Mus musculus with 6 samples.

Results

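RNA of cells sorted from the pituitary glands of adult Lhbcre mice was compared with RNA of a whole adult gland, 2 of the 6 libraries of a mouse series on long non-coding RNAs (lncRNAs) of the pituitary. The sorted library came from 7 pooled glands of 7-week-old mice that carried Lhbcre and a YFP reporter at the ROSA locus. Those glands were dispersed with collagenase, and RNA was made from the fluorescent fraction collected by FACS. The whole-gland library came from 1 adult nontransgenic gland, held all its cell types, and has no age in weeks in its own label. Both entered library preparation by ribosomal RNA depletion, with 250 ng of RNA as input. A Cre reporter at ROSA marks every cell in which Cre was once active, so the sorted cells are a lineage defined by Lhb, not cells chosen for their present level of Lhb. An adult Tshbcre library, made from 42 pooled glands in the same way, is set beside some values. It was read against the same whole gland, so its levels are given side by side only.

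A gene's value was the sum of FPKM (fragments scaled by transcript length and by the mapped fragments of the library) over the transcripts that bear its name, divided by 1 scaling factor per library and called scaled FPKM here. Autosomal genes listed in both tables numbered 46802, of which 15812 reached 1 scaled FPKM in at least 1 of the libraries. These were compared, and are called measured in the lists below. With 1 library a side there is no replicate, and no difference below was tested. Differences are of log2(scaled FPKM + 1), a scale that understates the difference of low genes, and a gene was counted as higher or lower when it was at least 4-fold apart on it. Folds below are on this scale, with 1 added to each level, unless another pseudocount is named. Bounds given beside a level are the deposited ones of each transcript, summed over the gene name and divided by the scaling factor of the library. They speak for read counting and assignment inside that library, not for differences between animals.

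Gonadotropes are the anterior pituitary cells that make luteinizing hormone and follicle-stimulating hormone, which drive the gonads. Each hormone pairs a common alpha subunit, encoded by Cga, with its own beta subunit, encoded by Lhb or Fshb. Pulses of gonadotropin-releasing hormone (GnRH) from the hypothalamus act on the receptor Gnrhr, a Gq-coupled receptor, to raise transcription and release of both hormones, and the nuclear receptor Nr5a1 (SF-1) is the transcription factor that sets gonadotropes apart from the other hormone cells. Tgfbr3l, a betaglycan-like membrane protein, is a co-receptor for inhibin B in gonadotropes.

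The 250 bases upstream of the start of the genes that mark this lineage are shown because these genes are the measure of the sort in the results below. They come from RefSeq's table on build GRCm38.p6, which held 7 of the 8 genes looked for. Nr5a1 was the gene not matched. Capitals mark matches on either strand. The motif of Nr5a1, the factor that binds gonadotrope genes as a single molecule, was searched as AAGGTCA. The letters for Pitx homeobox factors, which act in most hormone cell types of the gland, were TAATCC. For Egr1, the early response factor downstream of GnRH, the search used GCGNGGGCG. For Gata factors, zinc finger proteins of gonadotropes and thyrotropes, it used AGATAA. For AP-1, the dimer of Fos and Jun proteins, it used TGANTCA. N is any base, and matches to different motifs could overlap.
Lhb, chr7:45420696-45420945, plus strand: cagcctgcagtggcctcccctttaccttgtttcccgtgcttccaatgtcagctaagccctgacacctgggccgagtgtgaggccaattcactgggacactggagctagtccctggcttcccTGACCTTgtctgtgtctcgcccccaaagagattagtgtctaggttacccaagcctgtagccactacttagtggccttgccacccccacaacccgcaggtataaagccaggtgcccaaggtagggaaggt
Fshb, chr2:107059652-107059901, minus strand: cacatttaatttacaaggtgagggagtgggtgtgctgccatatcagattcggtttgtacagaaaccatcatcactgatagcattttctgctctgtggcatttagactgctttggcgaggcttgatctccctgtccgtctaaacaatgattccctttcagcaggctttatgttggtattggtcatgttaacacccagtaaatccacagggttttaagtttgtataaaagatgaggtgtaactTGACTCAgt
Cga, chr4:34893529-34893778, plus strand: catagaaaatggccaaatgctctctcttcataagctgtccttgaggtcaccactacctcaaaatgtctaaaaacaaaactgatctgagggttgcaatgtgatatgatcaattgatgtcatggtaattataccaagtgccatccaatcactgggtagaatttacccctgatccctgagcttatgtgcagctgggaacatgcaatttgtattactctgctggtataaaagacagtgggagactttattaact
Gnrhr, chr5:86197902-86198151, minus strand: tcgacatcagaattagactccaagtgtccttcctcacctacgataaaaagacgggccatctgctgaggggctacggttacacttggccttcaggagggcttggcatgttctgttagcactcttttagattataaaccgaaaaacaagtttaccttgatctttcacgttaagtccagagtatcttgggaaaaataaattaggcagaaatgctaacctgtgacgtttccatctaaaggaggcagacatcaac
Tgfbr3l, chr8:4247964-4248213, plus strand: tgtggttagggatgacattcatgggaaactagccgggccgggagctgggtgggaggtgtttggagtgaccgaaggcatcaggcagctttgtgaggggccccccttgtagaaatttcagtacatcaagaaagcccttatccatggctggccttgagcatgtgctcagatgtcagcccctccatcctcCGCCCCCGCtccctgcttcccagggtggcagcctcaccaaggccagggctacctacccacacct
The Lhb window held an Nr5a1 match on the minus strand, printed as TGACCTT, from 129 to 123 bases before the start. The Fshb window held an AP-1 match from 9 to 3 bases before it, and the Tgfbr3l window an Egr1 match from 64 to 56 bases before it. The Cga and Gnrhr windows held no match to these letters, which says nothing of the factors themselves. Over 32851 windows of the same length, 4.08% held the Nr5a1 letters, 6.25% the Pitx letters, 4.70% the Egr1 letters, 9.99% the Gata letters and 6.75% the AP-1 letters.

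The libraries differed in ways other than the sort. Relative depth, taken from the coverage per unit of FPKM, was 2.23 times as high in the Lhbcre library. Xist, the RNA that coats the inactive X chromosome, was at 29.4 scaled FPKM in the sorted cells and at 0.06 in the gland. Of the genes on the Y chromosome, Ddx3y, Kdm5d, Eif2s3y and Uty were at 0.01, 0.01, 0.50 and 0.63 in the sorted cells, whereas the gland gave 2.61, 3.04, 10.3 and 2.07. The Tshbcre library stood with the gland, with Xist at 0.11 and Ddx3y, Kdm5d and Eif2s3y at 3.20, 3.23 and 6.17. Uty is listed at 0 there, and at 7.53 with unnamed transcripts of its locus added. No source used here states the sex of the mice, and differences of sex, gland number, genotype and sort cannot be told apart in any result below. Sex also cannot be told apart from lineage where levels of the Lhbcre and Tshbcre libraries differ. Unnamed assembled transcripts of at least 200 nt made up 4.25% of unnamed transcripts in the Lhbcre library and 65.8% in the whole gland. An FPKM of 0 was not read as absence: 177 protein-coding genes were listed at 0 in the Lhbcre library and at 5 or more in the whole gland, among them the ribosomal protein genes Rps15 and Rplp0, and 134 of these had an unnamed transcript in their locus in the Lhbcre library.

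Of the 15812 genes, 614 (3.88%) were at least 4-fold higher in the Lhbcre library and 867 (5.48%) lower, 9.37% in either direction. The median log2 difference over all of them was 0.0016. Of the genes that differed, 77.7% were listed at 0 in 1 of the libraries. Over the 13703 genes above 0 in both, 153 (1.12%) were higher and 178 (1.3%) lower. A stricter reading asked that a gene be above 0 in both, that its deposited bounds lie apart, and that its locus total, which adds the unnamed assembled transcripts of 200 nt or more in its locus, stay 4-fold apart in the same direction. By this stricter reading 90 genes (0.569%) were higher and 106 (0.67%) lower, of which 33 and 90 were protein-coding (0.286% and 0.781% of 11526 protein-coding genes).

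**Figure D1:**
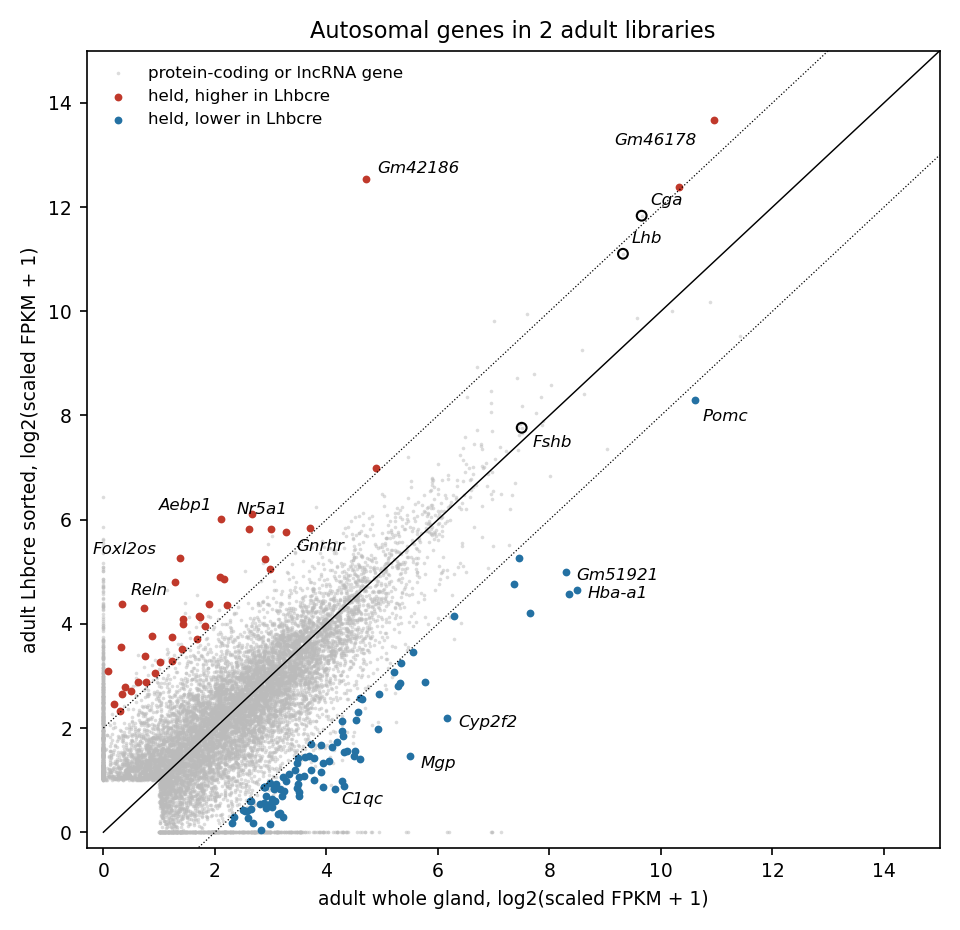
Scaled FPKM of autosomal protein-coding and lncRNA genes in the adult whole gland (x) and the adult Lhbcre library (y), both as log2(scaled FPKM + 1), 1 point per gene. The solid line marks equal levels, dotted lines 4-fold, coloured points the genes that met the stricter reading (held), and open circles Lhb, Cga and Fshb, of which Cga lies just outside the dotted line and Lhb inside it.

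The hormone subunit genes check the label of the sort. Lhb (chromosome 7, 45066912 to 45071279, mm39), the gene the Cre line is named for, stood at 2198 scaled FPKM in the Lhbcre library, with bounds of 2106 and 2290, and at 637 in the whole gland, with bounds of 608 and 666. It was 3.45-fold higher, short of the 4-fold mark. Its level in the Tshbcre library, 2904, was above that in the Lhbcre library. All of the named signal of Lhb lay on the 509-nt transcript in each of the 3 libraries. Cga (chromosome 4, 34893779 to 34907374) stood at 3649 versus 805 and was 4.53-fold higher, and at 6546 in the Tshbcre library. The locus total of the whole gland was 1289, which took the log2 difference of Cga from 2.18 to 1.5, below the mark. Fshb (chromosome 2, 106886331 to 106889996) stood at 216, with bounds of 214 and 219, against 180, with bounds of 177 and 183, a log2 difference of 0.26. The bounds of Fshb do not overlap, but its level was far nearer to that of the whole gland than those of Lhb and Cga, and it stood at 928 in the Tshbcre library. Among protein-coding genes, Cga and Lhb ranked 1 and 2 in the Lhbcre library and 5 and 6 in the whole gland.

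Of the 14 genes of the gonadotrope marker list, 12 were measured, 3 were 4-fold higher (Nr5a1, Gnrhr and Cga) and none was lower, against the 3.88% and 5.48% of all genes. The median log2 difference of the list was 1.46, or 1.37 by the locus totals of the same 12 genes. Summed over the list, the level was 6632 scaled FPKM in the Lhbcre library, 1855 in the whole gland and 11131 in the Tshbcre library. Cga and Lhb were its largest members in each. High levels of this list were thus not particular to the Lhbcre library. Nr5a1 (chromosome 2, 38582668 to 38604554) stood at 55.5 scaled FPKM, with bounds of 52.8 and 58.1, against 5.08, with bounds of 4.60 and 5.57, and was 9.29-fold higher. The Tshbcre library, at 26.0, lay between them. Its 2947-nt transcript was at 44.8 versus 5.08, and its 2994-nt transcript at 10.6 versus a listed 0. By locus total the whole gland reached 9.16 and the log2 difference of Nr5a1 was 2.47 in place of 3.22. Gnrhr (chromosome 5, 86328613 to 86345760) stood at 53.2 versus 8.69 and was 5.60-fold higher, with 28.4 in the Tshbcre library. The reads were assigned to different transcripts: the 1528-nt transcript carried the level in the Lhbcre library and the 2482-nt transcript that in the other libraries. FPKM divides by transcript length, so the same fragments give a higher FPKM on the shorter transcript. The part of this in the 5.60-fold was not tested. The locus totals of Gnrhr, which hold the same named transcripts, were 133 and 23.0, with a log2 difference of 2.48.

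The further members of the list lay under 4-fold on named transcripts, on the scale with 1 added to each level. Tgfbr3l (chromosome 8, 4297994 to 4301528), whose locus overlaps Map2k7, stood at 325 versus 90.5 and was 3.56-fold higher, with 413 in the Tshbcre library. Foxp2, a forkhead factor of gonadotropes, stood at 6.23 versus 1.26, and its locus totals, 11.7 and 1.26, were past 4-fold. Spp1, which encodes the secreted protein osteopontin, stood at 66.1 versus 27.2, and Inha, the inhibin alpha subunit, at 10.8 versus 4.06, with locus totals of 13.6 and 10.4. Egr1, the zinc finger factor that GnRH induces and that acts on Lhb, went the other way, at 33.7 versus 86.2. Its locus totals were 70.2 and 86.2, a log2 difference of -0.29. Otx1, a homeobox factor, stood at 0.017 versus 0.16 and was not measured. Foxl2, a forkhead factor that acts on Fshb and Gnrhr, is listed at 0 in both libraries and at 22.1 in the Tshbcre library, with locus totals of 12.5 and 4.63.

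**Figure D2:**
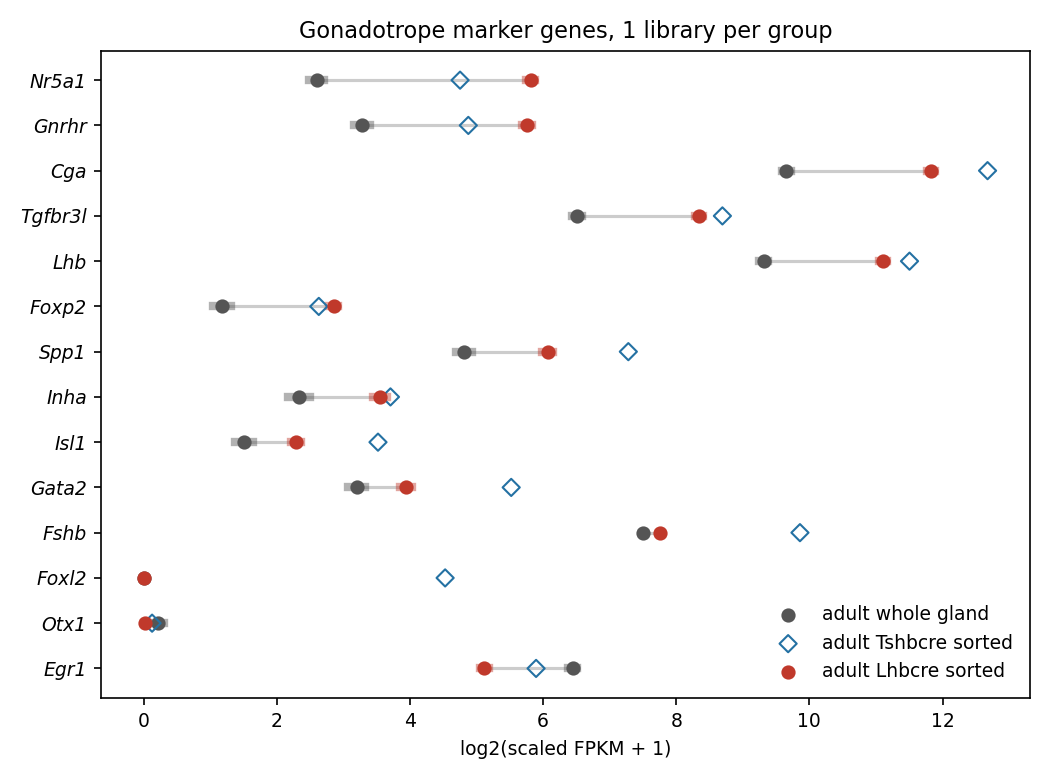
Levels of the 14 gonadotrope marker genes as log2(scaled FPKM + 1) in the adult Lhbcre library, the adult whole gland and the adult Tshbcre library, with thick bars for the deposited bounds of the Lhbcre and whole-gland values. Genes are ordered by the difference between the Lhbcre library and the whole gland, with Nr5a1 and Gnrhr at the top, Fshb, at 216 versus 180, in the lower part and Egr1 at the bottom.

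Of 14 transcription factors of the gonadotrope lineage, 11 were measured, 1 (Nr5a1) was higher and none was lower, a share near the 9.37% of all genes. Their median log2 difference was 0.18. Gata2, a zinc finger factor of gonadotropes and thyrotropes, stood at 14.3 versus 8.20, and Isl1, a LIM homeobox factor, at 3.88 versus 1.86. Both stood higher in the Tshbcre library, at 44.9 and 10.5. Pitx1, a homeobox factor found across hormone cell types, stood at 32.2 versus 32.02. Lhx3, a LIM homeobox factor of early pituitary development, stood at 14.2 versus 26.7, while Lhx4, its close relative, stood at 0.62 and was listed at 0 in the whole gland. Nr4a1, an orphan nuclear receptor that responds quickly to stimuli, stood at 31.6 versus 67.0, with locus totals of 122 and 111. Tcf7l2, a factor of Wnt signalling, stood at 1.91 versus 1.57.

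Of the GnRH receptor signalling list, which runs from the receptor to the kinases and early factors it activates, all 32 genes were measured. Of these 2 were higher (Gnrhr and Rgs4) and 1 (Plcb4) was lower, a share near the 9.37% of all genes, with a median log2 difference of -0.10 that turned to 0.15 by locus totals and to 0.28 under scaling to an equal sum of named genes. Rgs4, a GTPase activator that shortens signalling by Gq and Gi, stood at 55.5 scaled FPKM, with bounds of 53.0 and 57.9, against 7.00, with bounds of 6.57 and 7.42. It was 7.06-fold higher and met the stricter reading, and the Tshbcre library stood at 35.0. Prkcb, a calcium-dependent protein kinase C, stood at 20.03 versus 5.86, while Prkca stood at 3.51 versus 5.38. The Gq subunit gene Gnaq stood at 11.0 versus 8.60. Plcb4, a phospholipase C, stood at 2.77 versus 16.8, but its locus totals were 18.7 and 16.8. Adcy8, a calcium-stimulated adenylyl cyclase that was not on the list, stood at 7.58 versus 0.059, and at 0.24 in the Tshbcre library.

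In the activin, inhibin and BMP list, 16 of 22 genes were measured, and 1 was higher and 1 lower, beside 9.37% of all genes in either direction. The median log2 difference of the list was 0.37. Activin acts through Smad proteins to raise Fshb. Acvr1b, an activin type I receptor, stood at 7.76 versus 0.99 and was 4.40-fold higher, but its locus totals were 7.76 and 4.83. Smad3 stood at 24.4 versus 12.4, and Inhbb, the inhibin beta B subunit, at 4.84 versus 5.67. Bmp6 is listed at 0 in the Lhbcre library and stood at 6.64 in the whole gland and 7.51 in the Tshbcre library. Of 18 nuclear hormone receptors and their cofactors 15 were measured, 1 (Fkbp5) was higher and none lower, with a median of -0.45. The steroid receptor genes of this lineage were under 4-fold on the scale with 1 added to each level. Esr1, the estrogen receptor gene, stood at 35.7 versus 20.8. Pgr, the progesterone receptor gene, stood at 6.80 versus 1.20, with 2.15 in the Tshbcre library. Fkbp5, a glucocorticoid-induced chaperone of steroid receptors, stood at 8.33 and was listed at 0 in the whole gland, where its locus total was 19.4. Of 18 genes of steroid and cholesterol synthesis 12 were measured and all 12 had negative differences, with a median of -0.60 and only Hmgcs1, an early enzyme of cholesterol synthesis, 4-fold lower, at 1.66 versus 11.1. The locus totals of Hmgcs1, 5.76 and 12.4, were under 4-fold apart, and by locus totals Star, Fdps and Soat1 had positive differences.

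Genes of the secretory granule stood higher as a list, with few past the mark. All 16 genes of dense-core granules and prohormone processing were measured, with a median log2 difference of 0.80. Of these 1 was higher and 1 lower, beside 9.37% of all genes in either direction. Scg2, a granin of gonadotrope granules, stood at 980 versus 193 and was 5.04-fold higher, with 1391 in the Tshbcre library. The locus total in the whole gland was 328, and the log2 difference of Scg2 was then 1.57. Chga and Chgb, the chromogranins, stood at 353 versus 122 and at 441 versus 209, with a locus total for Chga of 235 in the whole gland. Pcsk1 and Cpe, which cut and trim prohormones, stood at 40.3 versus 16.5 and at 211 versus 102. Ptprn2, a granule membrane protein, stood at 15.3 versus 84.5, with a locus total of 59.5 in the Lhbcre library. The exocytosis machinery stood near equal: of 27 genes 25 were measured and none was apart, with a median of -0.06, and Snap25, a fusion protein of the cell membrane, stood at 51.9 versus 48.3.

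Of 41 channel genes 32 were measured, 1 was higher and 2 lower, a share near the 9.37% of all genes, with a median of -0.11. Kcnk3, a leak potassium channel, stood at 6.09 versus 0.50 and was 4.72-fold higher, with 15.8 in the Tshbcre library, and its locus totals were 6.09 and 2.90. The calcium channel genes Cacna1b and Cacnb1 are listed at 0 in the Lhbcre library and stood at 5.27 and 3.96 in the whole gland. The locus totals of Cacna1b were 7.57 and 7.42, and that of Cacnb1 in the Lhbcre library stayed at 0.

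Among neuropeptides and their receptors, 18 of 39 were measured, 2 were higher and 1 lower, beside 9.37% of all genes, with a median of -0.06. Gal, the galanin gene (chromosome 19, 3459915 to 3464544), stood at 19.96, with bounds of 18.6 and 21.4, against 2.71, with bounds of 2.13 and 3.36. It was 5.65-fold higher. Penk, which encodes the enkephalin precursor, stood at 8.72 versus 1.35 and was 4.14-fold higher. Both met the stricter reading, and in the Tshbcre library both stood below the whole gland, at 2.08 and 0.56. Ghrhr, the receptor of growth hormone-releasing hormone, is listed at 0 in the Lhbcre library and reached 27.2 in the whole gland, with locus totals of 38.5 and 63.9. The medians of the channel, exocytosis and neuropeptide lists changed sign under scaling to an equal sum, as did that of the GnRH signalling list.

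Among protein-coding genes that met the stricter reading, the 1 furthest above the whole gland was Reln (chromosome 5, 22089452 to 22549703), which encodes the secreted matrix protein reelin. It stood at 19.9 scaled FPKM, with bounds of 18.99 and 20.8, against 0.26, with bounds of 0.19 and 0.33, and was 16.6-fold higher. The Tshbcre library stood at 0.14. The receptors and the adaptor of reelin were less far apart: Lrp8 stood at 3.42 versus 1.80, Vldlr at 8.48 versus 5.66, with locus totals of 25.6 and 5.66, and Dab1 at 0.21 versus 0.062. In the list of axon guidance and adhesion genes that holds them, 34 of 44 were measured, Reln alone was higher, none was lower, and the median was 0.09, or -0.15 by locus totals.

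The next genes by difference, in an order that the choice of the 12 furthest genes fixes, have varied roles. Aebp1, a carboxypeptidase-like protein of the extracellular matrix, stood at 63.9 versus 3.34, and Crtac1, a secreted matrix protein, at 26.7 versus 1.42. Nhlh2, a basic helix-loop-helix transcription factor, stood at 10.7 versus 0.25. Slurp2, a secreted protein of the Ly6 family, stood at 18.7 versus 0.66, and Dlgap1, a scaffold protein of synapses, at 12.6 versus 0.83. Sem1, a small subunit of the proteasome, stood at 68.0 versus 5.34, Ggh, a lysosomal hydrolase of folates, at 28.0 versus 3.50, and the histone gene H2bc18 at 28.8 versus 3.28. With Reln, Nr5a1, Adcy8 and Rgs4 these made the 12. In the Tshbcre library Crtac1, at 1.16, and Reln stood below the whole gland, and Aebp1, at 11.9, stood between the whole gland and the Lhbcre library. Chst8 was picked out after its values were seen: it encodes the sulfotransferase that sulfates the sugars of luteinizing hormone, and stood at 37.1 versus 6.47, with 10.1 in the Tshbcre library.

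**Figure D3:**
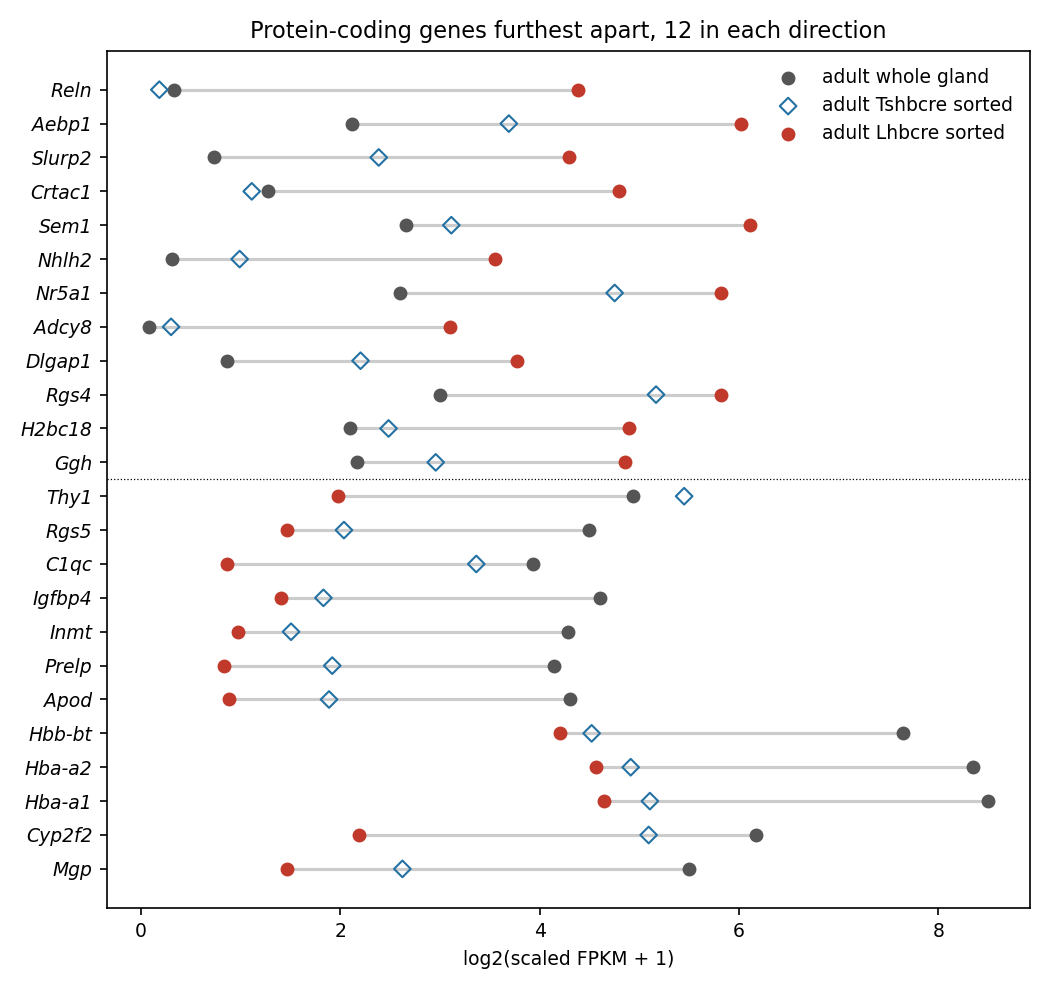
Levels, as log2(scaled FPKM + 1), of the 12 protein-coding genes furthest higher and the 12 furthest lower in the adult Lhbcre library among genes that met the stricter reading, with the adult whole gland and the adult Tshbcre library. The upper 12 run from Reln to Ggh, and the lower 12, below the dotted line, are led by Mgp, at 1.77 versus 44.2.

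Markers of cells that make no hormone were lower as lists, beside the 5.48% of all genes that were 4-fold lower. Since these are bulk libraries, fewer cells of a type and less RNA per cell cannot be told apart. Of 12 measured mesenchymal and pericyte genes 8 were 4-fold lower, 7 of them by the stricter reading, with a median log2 difference of -2.37 and a summed level of 32.1 versus 166 scaled FPKM. Mgp, an inhibitor of calcification in the matrix, stood at 1.77 versus 44.2 and was 16.4-fold lower, and Rgs5, a marker of pericytes, stood at 1.77 versus 21.6. Apod, a lipid carrier, stood at 0.85 versus 18.8, and Lum, a matrix proteoglycan, is listed at 0 and stood at 6.04 in the whole gland. Col1a2, a collagen gene of the same list, stood at 23.2 versus 32.7, while its partner Col1a1 stood at 0.62 versus 10.3. Of 13 immune genes 6 were lower, all by the stricter reading, with a median of -1.73 and a sum of 45.6 versus 179. The complement genes C1qb and C1qc, made by macrophages, stood at 1.89 versus 18.8 and at 0.83 versus 14.3. The macrophage genes Tyrobp and Lyz2 stood at 0.56 versus 7.10 and at 1.76 versus 11.9.

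All 4 measured genes of the erythroid list, which are globin genes, were lower, with a median of -3.61 and a sum of 102 versus 1058. Hba-a1 and its near-identical copy Hba-a2, which share reads, stood at 24.1 versus 360 and at 22.7 versus 325, and Hbb-bt and Hbb-bs at 17.4 versus 200 and at 37.7 versus 173. The locus total of Hbb-bs in the whole gland was 1361, which the sum above does not hold. The endothelial list, with 12 genes measured, had 1 lower, beside 5.48% of all genes, a median of -1.34 and a sum of 46.4 versus 156. The lower gene, Eng, a co-receptor of vessel cells, stood at 2.25 versus 12.3. Plvap, a protein of fenestrated capillaries, stood at 16.2 versus 63.1. The stem and folliculostellate list had 16 measured genes, 6 lower, 5 of them by the stricter reading, a median of -1.72 and a sum of 62.2 versus 243. Cyp2f2, a cytochrome P450, stood at 3.56 versus 71.0 and was 15.8-fold lower. Sox2, the factor of pituitary stem cells, stood at 0.45 versus 6.95, and Aldh1a2, an enzyme of retinoic acid synthesis, at 1.95 versus 19.6. Lcn2 is listed at 0 in the Lhbcre library and stood at 24.9 in the whole gland. Krt8, Nes and Fxyd1 of the same list had positive differences, with Krt8 at 14.9 versus 8.41. Posterior lobe genes had a median of -1.36, with 2 of 7 lower and a sum of 4.95 versus 27.9, and Scn7a, a sodium channel-like gene, stood at 0.63 versus 8.23 and Oxt, the oxytocin gene, at 0.52 versus 5.29.

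The 12 protein-coding genes furthest lower were mostly of these kinds. They were Mgp, Cyp2f2, Hba-a1, Hba-a2, Hbb-bt, Apod, Prelp, Inmt, Igfbp4, C1qc, Rgs5 and Thy1. Prelp, a matrix proteoglycan, stood at 0.78 versus 16.7, and Inmt, a methyltransferase, at 0.97 versus 18.5. Igfbp4, a binding protein of insulin-like growth factors, stood at 1.65 versus 23.3. Thy1, a surface glycoprotein, stood at 2.93 versus 29.6, and unlike the others of the 12 it stood higher in the Tshbcre library, at 42.7, than in the whole gland.

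**Figure D4:**
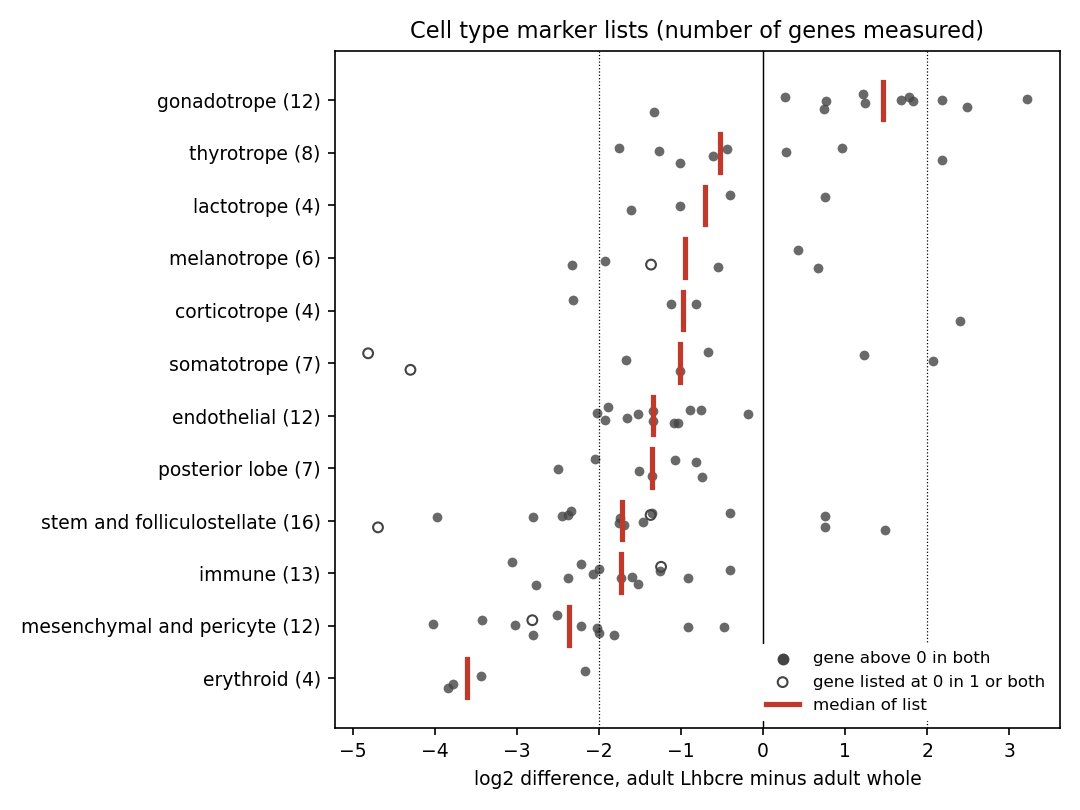
Log2 difference of scaled FPKM + 1 between the adult Lhbcre library and the adult whole gland for each measured gene of 12 cell type lists, 1 point per gene, with the list median as a red bar and dotted lines at 4-fold. Open points are genes listed at 0 in 1 or both libraries, and the gonadotrope list, with a median of 1.46, is the only 1 of the 12 with a positive median.

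The lists of the other hormone cell types had negative medians on named transcripts, and the sorted library still held their transcripts. By locus totals the medians of the somatotrope, lactotrope and thyrotrope lists were near 0, at -0.078, -0.050 and -0.17, while those of the corticotrope and melanotrope lists were -1.10 and -1.34. These medians are over the genes measured on named transcripts, only 4 for corticotropes. Counting also members that reached 1 scaled FPKM by locus total, the corticotrope median was -0.48. Pomc, the corticotropin precursor gene of corticotropes and melanotropes, stood at 312, with bounds of 297 and 326, against 1555, with bounds of 1488 and 1622. It was 4.98-fold lower, and 312 remained above the level of Fshb in the same library. Neurod1, a corticotrope factor, stood at 6.05 versus 0.33. Its locus totals, 6.05 and 1.24, were under 4-fold apart with 1 added to each. The median of the 4 measured corticotrope genes was -0.97. Oacyl, an acyltransferase gene of melanotropes, stood at 2.85 versus 18.4 and was the 1 lower gene of 6, with a median of -0.96. Tshb, the thyrotropin beta gene, stood at 9.05 versus 33.1, and at 1075 in the Tshbcre library. Cga was the 1 higher gene of the 8 measured on the thyrotrope list, whose median was -0.53. Gh and Prl, the growth hormone and prolactin genes, were not compared, since neither is listed for the Lhbcre library. Of 7 measured somatotrope genes 2 were lower and 1 higher, beside 5.48% and 3.88% of all genes, with a median of -1.01. Pappa2, which cleaves IGF-binding proteins, is listed at 0 in the Lhbcre library, as is Ghrhr, and stood at 18.7 in the whole gland. Its locus totals, 7.49 and 22.9, were under 4-fold apart, while Gadd45g, a stress-response gene, stood at 32.3 versus 6.93. Drd2, the dopamine receptor gene of the lactotrope list, stood at 7.08 versus 23.8, and none of its 4 measured genes was apart, with a median of -0.71. Summed over each list, the level in the Lhbcre library and the whole gland was 323 and 1569 for corticotropes, 234 and 629 for somatotropes, 69.7 and 94.6 for lactotropes and 33.0 and 43.0 for melanotropes. Whether these levels came from other cells in the sorted fraction was not tested.

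The series concerns lncRNAs, and more of these were higher than lower. Of 1135 lncRNA genes compared, 62 (5.46%) were higher and 14 (1.23%) lower, with a median log2 difference of 0.53, against 3.18% and 3.7% of protein-coding genes, whose median was -0.055. Of the 62 higher lncRNA genes 51 were listed at 0 in the whole gland, and of the 14 lower 13 were listed at 0 in the Lhbcre library. By locus totals the lncRNA median was 0.32. By the stricter reading 9 were higher and 1 lower (0.793% and 0.088%), against 0.569% and 0.67% of all genes compared. Foxl2os (chromosome 9, 98831208 to 98837363), a lncRNA gene beside Foxl2 on the opposite strand, stood at 37.3 scaled FPKM, with bounds of 35.7 and 39.0, against 1.59, with bounds of 1.37 and 1.82. It was 14.8-fold higher, and the Tshbcre library stood at 24.7. Its locus total in the whole gland was 7.10. The RefSeq windows of 250 bases upstream of Foxl2 and Foxl2os, on opposite strands, overlap by 204 bases.

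The other lncRNA genes furthest higher by the stricter reading are short. Gm42186, of 73 nt, stood at 5927 versus 25.3, with bounds in the whole gland of 0 and 126. Snhg9, a small nucleolar RNA host gene of 183 nt, stood at 16.0 versus 1.69, and LOC115486982, of 169 nt, at 16.7 versus 2.27. The lower bounds of Snhg9 and LOC115486982 in the whole gland were also 0. Gm46178, of 293 nt at its longest, stood at 13074 versus 1989. Gm51921 (chromosome 11, 103955935 to 103965529), with a longest transcript of 2536 nt, was the only lncRNA gene lower by the stricter reading, at 31.0 versus 312, with 184 in the Tshbcre library. In a list of known lncRNA genes, 30 were measured, 6 were higher and 2 lower, beside 5.46% and 1.23% of all lncRNA genes. The median of the list was 0.37, or -0.033 by the locus totals of the same genes. Meg3, an imprinted lncRNA of the pituitary, stood at 902 versus 127, yet its 1913-nt transcript stood at 734 against a listed 0 and its 11473-nt transcript at 168 versus 127. The locus total of Meg3 in the whole gland was 1622, and the log2 difference turned to -0.85. Lncpint stood at 9.40 and is listed at 0 in the whole gland, and its locus totals were 58.4 and 21.8.

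Immediate early and heat shock genes respond quickly to stimuli and to handling of cells. Of 27 measured 1 was higher and 2 lower, a share near the 9.37% of all genes, with a median of 0.23. Fos and Fosb, early response factors, stood at 133 versus 89.7 and at 38.1 versus 14.1. Hspa1a and its near copy Hspa1b stood at 228 versus 177 and at 217 versus 172. Socs3, an inhibitor of cytokine signalling, stood at 15.4 versus 2.33, with locus totals of 15.4 and 13.3, while Klf2 stood at 0.35 versus 4.65 and Nr4a2 at 3.17 versus 27.4. The locus totals of Nr4a2, 9.38 and 27.4, were under 4-fold apart. Of 40 ribosomal protein genes 1 was higher and 4 lower, with a median of 0.40. Each of these was listed at 0 in 1 of the libraries, for example Rps15, Rplp0 and Rpl27 in the Lhbcre library and Rps7 in the whole gland. The locus totals of Rplp0 were 73.7 and 70.6, and those of Rps7 were 45.8 and 53.3. None of 6 measured cell cycle genes was apart.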

How the data were processed

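Values came from isoform tables, 1 per library, in which the authors gave each transcript an FPKM with bounds, a status and a coverage signal, per the file headers. Bowtie2, Cufflinks, FastQC and build mm39 are named, without versions, in the submitters' processing notes, and no source used here says whether counting used strand, or how many reads each library had. The deposited coverage signal divided by FPKM was the same for every transcript of a file, and this quotient gave relative depth only. Deposited transcript lengths served for the 200 nt limit. Coordinates are of mm39, counted from 1, except those of the promoter windows.

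FPKM was summed over the transcripts of a gene name. Names not listed in the Lhbcre library numbered 491, and in the whole gland 22. Each library was divided by the median of ratios over 5808 genes at 1 or more in all 6 libraries (0.967 for Lhbcre, 1.10 for the whole gland, 1.00 for Tshbcre). The pseudocount was 1, and Python 3.11.15, pandas 2.3.3 and numpy 2.4.6 were used. Calling was tested on simulated data. Biotypes came from RefSeq, by accession for 33796 genes, by symbol for 11496 and by synonym for 1. Overlapping and antisense genes cannot be told apart. Samples were grouped by their labels.

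Named genes were the subunits, factors and gonadotrope markers, up to 4 called members of each other list, and by the stricter reading the 12 protein-coding and up to 5 lncRNA genes furthest each way. Others were added for their role or as markers. The members and the 27 lists were chosen with earlier results of these data known. A few genes of the lists are not reported here by name.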

Additional observations from a re-analysis of the deposited data

Results flagged for a closer look

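Xist lies outside the autosomal comparison and gave a signal in the Lhbcre library that the whole gland lacked: 29.4 scaled FPKM, with bounds of 28.2 and 30.7, against 0.06, with bounds of 0.044 and 0.078. The Y-linked genes stood the other way, as given in the account of the libraries.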

How the results depend on the processing

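No paired analysis was possible because each group is 1 library, and leaving out a replicate was not possible for the same reason. The counts of genes 4-fold higher and lower, 614 and 867, were 1584 and 1726 with a pseudocount of 0.1 and 189 and 244 with a pseudocount of 5. Restricting to genes above 0 in both libraries gave 153 and 178. Over protein-coding genes alone they were 367 and 427, and over genes with a listed transcript of at least 200 nt 492 were lower, both sets chosen after seeing the data. Under the other scalings and filters tried they lay from 447 to 829 higher and from 586 to 982 lower. The share of higher genes was 41.5%, and 53.1% with libraries scaled to an equal sum, which moved the median of all genes by 0.39, while FPKM as deposited moved it by -0.16. The signs of 7 called genes reversed, all with assembled transcripts of 200 nt or more added: Plcb4 to 0.15, Cacna1b to 0.024, Rps15 to 0.56, Rplp0 to 0.060, Fkbp5 to -1.13, Rps7 to -0.21 and Meg3 to -0.85. The other 680 of 687 values recomputed for 70 called genes kept their sign. A change of pseudocount or of the filter on low values cannot turn a sign. The rescalings moved the median by at most 0.39, which is small beside calls at 4-fold. The count of kept signs is therefore no measure of how stable the calls are. Adding unnamed transcripts of any length by FPKM times length was not run, since short ones hold nearly all of that product (unnamed transcripts hold 99.98% of it in the Lhbcre library). Depth sets how low a level can be read, and no result has an error between animals.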

Other observations

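Genes on the X chromosome were outside the comparison. Nr0b1, which encodes the nuclear receptor DAX-1, a partner of Nr5a1 in gonadotropes, stood at 7.72 scaled FPKM in the Lhbcre library, with bounds of 7.30 and 8.14, against 0.58 in the whole gland, with bounds of 0.38 and 0.79, and at 4.59 in the Tshbcre library. With assembled transcripts added the whole gland stood at 2.71. Smarca1, a chromatin remodeller gene, stood at 6.06 against 4.11, and Pcsk1n, a granule protein gene, at 100.1 against 122.

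Genes whose longest listed transcript is under 200 nt were apart more often than others: of 835, 143 were higher and 375 lower. This was 62.0% in either direction, against 6.43% of genes with a listed transcript of 200 nt or more and 9.37% of all genes. Of the short genes apart, 90.9% were listed at 0 in 1 of the libraries. Of 316 small nucleolar RNA genes 45 were higher and 177 lower, of 72 microRNA genes 15 were higher and 50 lower, and of 254 small nuclear RNA genes 16 were higher and 77 lower. Among small nucleolar, microRNA and small nuclear RNA genes apart, 91.9%, 95.4% and 92.5% in turn were listed at 0 in 1 of the libraries. Of 50 transfer RNA genes 33 were higher and 16 lower, and each of these was listed at 0 in 1 of the libraries. The unnamed transcripts also had different lengths in these libraries, with medians of 52 and 268 nt in the Lhbcre library and the whole gland, and the part of this in the small RNA values was not tested.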
